A study of Homo sapiens with 3 samples.

Results

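The sodium pump gene ATP1B1, the plasma membrane calcium pump gene ATP2B4 and the osmotic stress factor gene NFAT5 were followed in LNCaP cells after 24 h with bufalin. LNCaP, established from a lymph node metastasis, is a human cell line of prostate cancer that responds to androgen. Bufalin, a cardiotonic steroid found in toad venom, inhibits the sodium pump. All probes that could be named here for the 3 genes were taken, each kept apart, which gave 6 of the 47323 probes on the array, 2 for each gene. There were 3 treatment groups: ethanol as vehicle, bufalin at 10 nM and bufalin at 20 nM, all in the same line grown with serum. Each group had 1 Illumina bead array, so the spread between cultures is unknown and no p-value between treatments was computed. The study asked how transcript levels vary with the bufalin concentration.

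The sodium pump, Na,K-ATPase, exports sodium and imports potassium at the cost of ATP, and it consists of a catalytic alpha subunit, a beta subunit and often a small FXYD regulator. ATP1B1 encodes the beta 1 subunit, a glycoprotein needed for the alpha subunit to reach the plasma membrane. When the pump is blocked, cell sodium rises, potassium falls, and calcium can rise through sodium-calcium exchange. ATP2B4 encodes a pump (PMCA4) that removes calcium from the cell. NFAT5, also called TonEBP, is a Rel-family transcription factor known for switching on transporters of organic osmolytes under hypertonic stress.

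Deposited signals ran from 91.8 to 25603 on the vehicle array, with 14664, 14735 and 14612 probes detected on the vehicle, 10 nM and 20 nM arrays. Detection here means a deposited detection p-value below 0.01. That p-value moves in 770 steps, and a value of 0 means that no control lay above the probe. Gene names were at hand only for probes in the deposited set that differed from vehicle by at least 10% at either dose, so further probes of these genes were not analysed here. Nearly all named probes also had 2 or more arrays with a detection p-value under 0.05, so detection of the markers named below was partly fixed beforehand. Of 12 luminal prostate markers 10 had a named probe, and all 10 were detected on the vehicle array, KLK3 (prostate-specific antigen) among them. Their summed signal was 8267 with vehicle, 10615 at 10 nM and 11106.5 at 20 nM, of which the androgen-regulated protease TMPRSS2 gave 1492, 3668 and 5800.1. Without TMPRSS2 the sum was 6775, 6948 and 5306 in that order. At 20 nM 2 of the 10 were at least 2-fold higher, 3 were at least 2-fold lower and 5 lay between, and the median log2 fold change was -0.56. Over all 8346 detected named genes at 20 nM, 14.7% were at least 2-fold higher and 16.6% at least 2-fold lower. Of 4 basal epithelial markers 0 had a named probe, so whether these 4 were expressed cannot be told. Of 5 leukocyte markers 2 had one, CD68 and CD14, with a summed signal of 418 with vehicle, 467 at 10 nM and 591 at 20 nM, and CD14 was detected at 20 nM only. The 2 named stromal markers of 6, ACTA2 and VIM, summed to 1678, 2559.6 and 2248 in the same order. The part of these differences in the results below was not tested. In RNA from a whole culture, fewer cells of a kind and less RNA per cell cannot be told apart.

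NFAT5 stood farthest above vehicle of the 3 genes at 20 nM, ATP1B1 was higher at both doses, and ATP2B4 was near the background with probes that disagreed. Counting a 2-fold difference on the background-corrected scale described with the methods, 2 of 6 probes were higher at 10 nM, 1 of ATP1B1 and 1 of NFAT5, and 0 were lower. Of all 15756 probes detected on at least 1 of those arrays, 4.98% were at least 2-fold higher and 2.77% at least 2-fold lower. The 6 probes had to differ from vehicle by at least 10% to be named, and the 15756 probes did not. The same holds for the ranks among detected probes given below. Over the 8233 detected named genes, whose probes come from the same named set, the shares were 6.41% and 3.24%. At 20 nM, 3 of 6 were higher, 1 of ATP1B1 and both of NFAT5, and 1 probe of ATP2B4 was lower. That ATP2B4 probe was not detected at 20 nM, and with bounds in place of such values 3 were higher and 0 lower. The background there was 12.3% higher and 12.8% lower of 16112 probes, and 14.7% and 16.6% of 8346 named genes. Between the doses 2 of 6 were higher at 20 nM, both probes of NFAT5, and 0 were lower, where 2.63% and 3.59% of 15724 probes were. Both calls depend on the processing. Without background correction these log2 steps were 0.81 for ILMN_1797594 and 0.74 for ILMN_1780291, below 2-fold, and 0.36% of all detected probes were higher. In the deposited signals they were 0.78 and 0.71. With an offset of 50 the step of ILMN_1797594 was 0.93. Of the 6 probes 4 were detected on every array. The other 2, NFAT5 probe ILMN_1780291 and ATP2B4 probe ILMN_1664772, were detected on 2 arrays each.

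**Figure D1:**
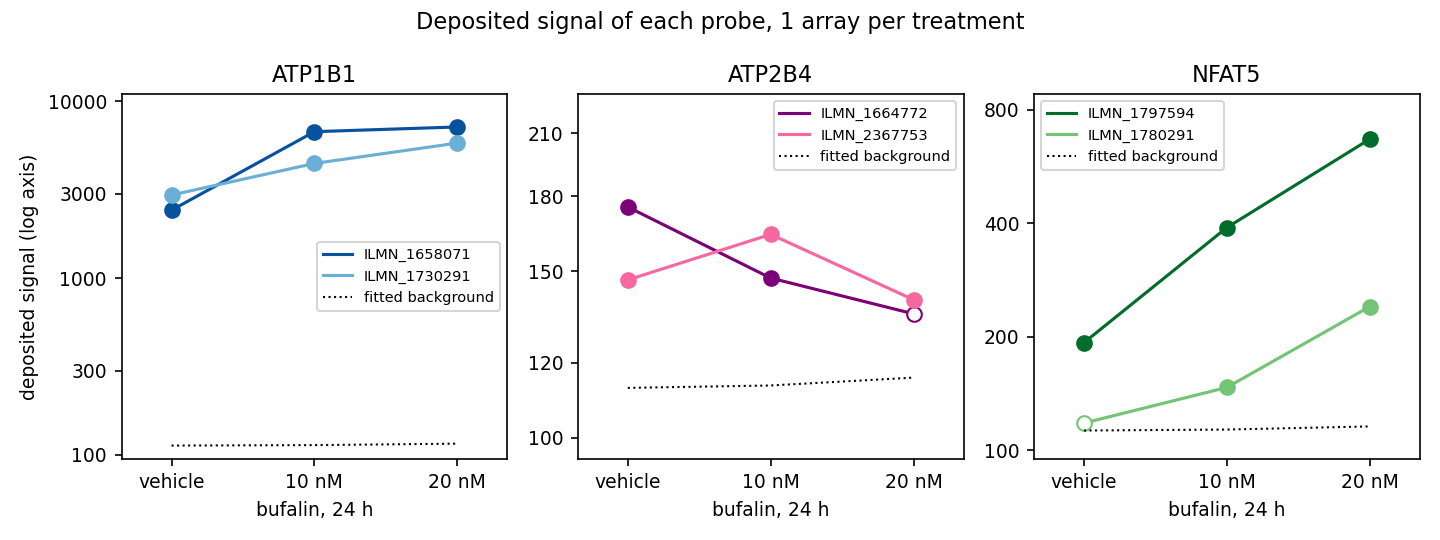
Deposited signal (vertical log axis, arbitrary units) of the 2 probes of each gene on the vehicle, 10 nM and 20 nM arrays, with open points where the detection p-value was 0.01 or more and the fitted mean background dotted. ATP1B1 lies far above the background throughout, NFAT5 is higher with each dose by both probes, and the ATP2B4 probes stay between 135 and 175.

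ATP1B1 probe ILMN_1658071 had a signal of 2422 with vehicle, 6734 at 10 nM and 7160.1 at 20 nM. Probe ILMN_1730291 had a signal of 2951 with vehicle, 4453 at 10 nM and 5805 at 20 nM. By both probes the vehicle array was the lowest and the 20 nM array the highest, and all 6 detection p-values were 0. The highest of these signals was 28.5% of the brightest on its array, well short of the top of the range.

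In log2 fold change ILMN_1658071 was 1.51 above vehicle at 10 nM and 1.52 at 20 nM, which is 2.84-fold and 2.86-fold. The difference between the doses was 0.01, so nearly all of the distance from vehicle was present at the lower dose. ILMN_1730291 was 0.56 above vehicle at 10 nM (1.48-fold) and 0.88 at 20 nM (1.84-fold), and 0.32 higher at 20 nM than at 10 nM. Both probes are annotated to the same transcript record, and they differed from each other by 0.94 at 10 nM and 0.64 at 20 nM. Among 1522 genes with exactly 2 detected named probes, 3.88% had probes farther apart than those of ATP1B1 at 10 nM, and at 20 nM 22.9% of 1574 genes did.

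Of the 15756 probes detected at 10 nM or with vehicle, 236 lay higher than ILMN_1658071 and 2365 lay higher than ILMN_1730291. At 20 nM the numbers were 774 and 2460 of 16112, so the place of the first probe moved down as more of the array moved away from vehicle. Taken from the deposited signals without any correction, 75 probes stood above ILMN_1658071 at 10 nM and 229 at 20 nM. The dose step of this probe depended on scaling: it was 0.01 after quantile normalization and 0.19 after median scaling.

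The 250 bases before the annotated start are shown for the sodium pump gene and the calcium pump gene. No such sequence was at hand for NFAT5. By their probes with the higher mean, ATP1B1 and ATP2B4 stood on opposite sides of vehicle. That ATP2B4 probe was not detected at 20 nM, and the other was at 0.42 at 10 nM, on the same side as ATP1B1. The sequences are RefSeq's on GRCh38.p14, plus strand, 5′ to 3′, with matches to the searched motifs in capitals.
ATP1B1, chr1:169106440-169106689: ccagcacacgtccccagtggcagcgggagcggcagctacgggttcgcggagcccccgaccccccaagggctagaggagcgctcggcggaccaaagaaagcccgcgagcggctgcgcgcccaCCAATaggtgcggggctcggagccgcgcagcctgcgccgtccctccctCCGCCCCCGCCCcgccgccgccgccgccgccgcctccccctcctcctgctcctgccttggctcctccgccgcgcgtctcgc
ATP2B4, chr1:203626582-203626831: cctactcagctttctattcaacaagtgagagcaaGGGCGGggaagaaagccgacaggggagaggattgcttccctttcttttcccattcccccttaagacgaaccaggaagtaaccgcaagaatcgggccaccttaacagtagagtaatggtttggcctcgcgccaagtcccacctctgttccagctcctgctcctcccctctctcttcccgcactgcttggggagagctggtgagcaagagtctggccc
The ATP1B1 window was 77.6% G or C with 35 CpG pairs, and the ATP2B4 window 55.6% with 8, where the median of 35116 windows of that length was 58.0% and 11. On both strands, the motifs searched were TGGAAA (the core bound by NFAT proteins), GGGCGG (GC box), CCAAT, TGACGTCA (cAMP response element), TGACTCA (AP-1) and TATAAA. ATP1B1 held 2 GC boxes on the minus strand that begin 81 and 75 bases before the start and 1 CCAAT on the plus strand at 129 bases. ATP2B4 held 1 GC box on the plus strand at 216 bases. The NFAT core, the cAMP response element, AP-1 and TATAAA letters were in neither window. Of all windows, 42.6% held a GC box, 32.0% CCAAT, 18.0% the NFAT core, 1.65% the cAMP response element, 4.20% AP-1 and 10.7% TATAAA. The GC box and CCAAT matches do not overlap each other.

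ATP2B4 probe ILMN_1664772 had a signal of 175 with vehicle, 148 at 10 nM and 135 at 20 nM, with detection p-values of 0.0013, 0.0026 and 0.023. Probe ILMN_2367753 had a signal of 147 with vehicle, 164 at 10 nM and 140.0 at 20 nM, with detection p-values of 0.0013, 0.0013 and 0.0091. The first probe was highest with vehicle, and the second was highest at 10 nM. The array annotation gives these probes different transcript records of the gene.

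All 6 ATP2B4 signals were close to the fitted mean background, which was 113, 114 and 116 units on the vehicle, 10 nM and 20 nM arrays. The fitted SD of that background was 7.95, 7.82 and 8.22 units in the same order. For ILMN_1664772 the 20 nM signal minus the vehicle signal was -40.2 units, and for ILMN_2367753 it was -6.91. At 10 nM the differences were -27.9 and 17.2 units, of opposite sign.

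As a log2 fold change, ILMN_1664772 was -0.65 at 10 nM and -1.06 at 20 nM. Because it was not detected at 20 nM, the fold there is a bound, and the probe was at least 1.85-fold lower. ILMN_2367753 was 0.42 at 10 nM and -0.22 at 20 nM, so it was on the higher side of vehicle at the first dose and on the lower side at the second. Between the doses ILMN_1664772 was at least 1.18-fold lower and ILMN_2367753 was 1.56-fold lower at 20 nM. The probes stood 1.07 apart at 10 nM, and 2.30% of the 1522 genes with 2 detected named probes had probes farther apart.

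Of 16112 detected probes, 6456 lay below ILMN_2367753 at 20 nM, and of 15756 at 10 nM, 1837 lay below ILMN_1664772. A probe of the deposited named set had to differ by at least 10% from vehicle. ILMN_2367753 was just inside that limit, with 11.7% at 10 nM and -4.71% at 20 nM. Without background correction the 20 nM value of ILMN_1664772 was -0.38.

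NFAT5 probe ILMN_1797594 had a signal of 193 with vehicle, 389.6 at 10 nM and 668 at 20 nM, with detection p-values of 0 on all 3 arrays. Probe ILMN_1780291 had a signal of 118 with vehicle, 147 at 10 nM and 240.5 at 20 nM. Its detection p-value was 0.20 with vehicle, 0.0039 at 10 nM and 0 at 20 nM. Both probes were lowest with vehicle and highest at 20 nM. The annotation gives them different transcript records.

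ILMN_1797594 was 1.61 above vehicle at 10 nM and 2.61 at 20 nM in log2 fold change, or 3.04-fold and 6.12-fold. From the lower to the higher dose the step was 2.01-fold upward. ILMN_1780291 was not detected with vehicle, so it was at least 1.18-fold higher at 10 nM and at least 3.56-fold higher at 20 nM. Its measured log2 fold changes were 0.97 and 2.57, and its step between the doses, over arrays that both detected it, was 3.03-fold upward. The vehicle signal of this probe was not above background, so its distance from the other probe against vehicle is not given.

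Of 16112 probes, 113 stood above ILMN_1797594 at 20 nM. Between the doses, 394 of 15724 stood above it and 29 above ILMN_1780291, or 2.51% and 0.18%. Taken from the deposited signals, 136 probes stood above ILMN_1797594 at 20 nM against vehicle, and 188 and 274 stood above the 2 probes between the doses. ATP1B1 probe ILMN_1658071, with a dose step of 0.01, had 7891 probes above it in the same comparison. Without background correction the 20 nM log2 fold changes of the NFAT5 probes were 1.81 and 1.04.

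**Figure D2:**
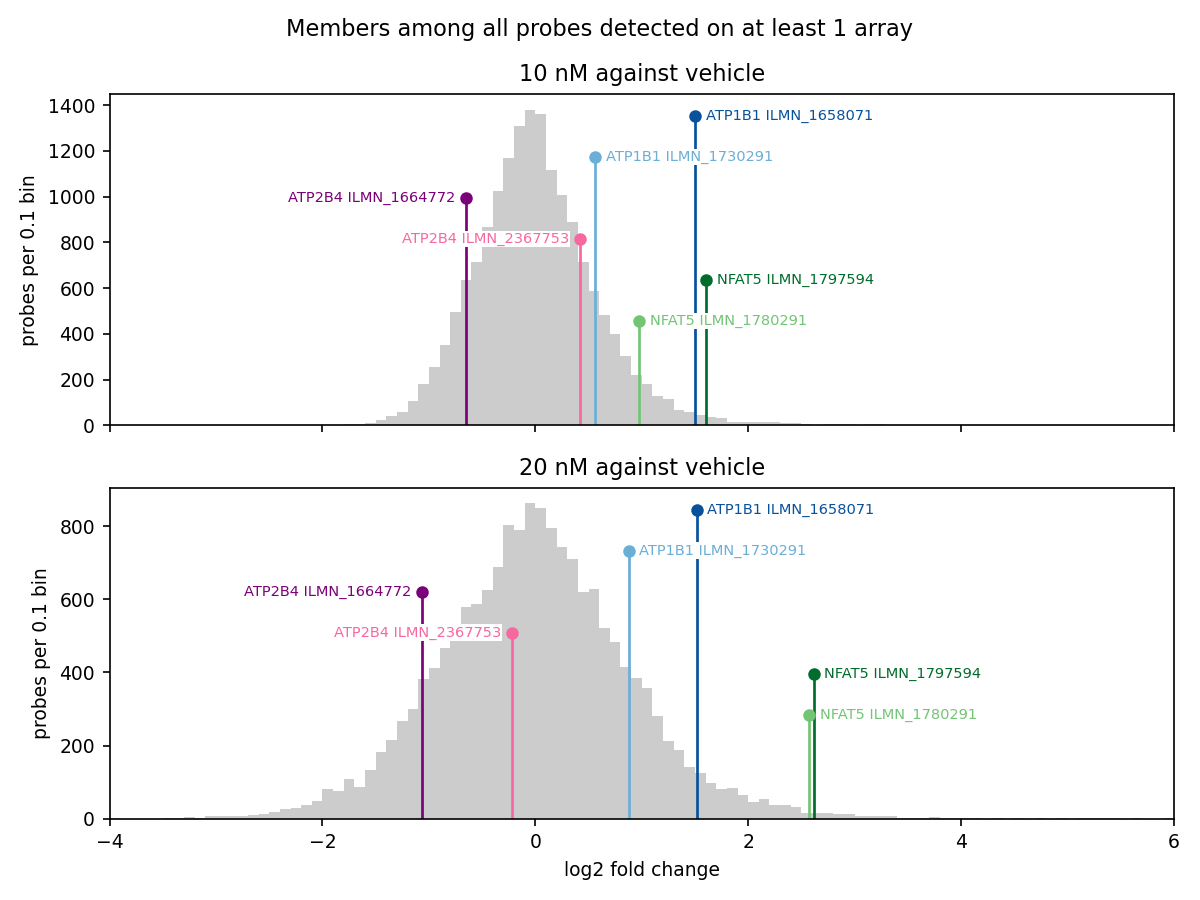
Probes per bin of 0.1 (vertical axis) by log2 fold change against vehicle (horizontal axis). Each panel holds all probes detected on at least 1 array of its pair. The 6 probes of the 3 genes are marked at their measured values by lines whose heights carry no value. NFAT5 probe ILMN_1797594 lies at 2.61 in the right tail at 20 nM and the ATP2B4 probes lie within the bulk. ILMN_1780291 (both doses) and ILMN_1664772 (20 nM) were detected on 1 array of the pair, and their bounds at 20 nM are 1.83 and -0.89.

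**Figure D3:**
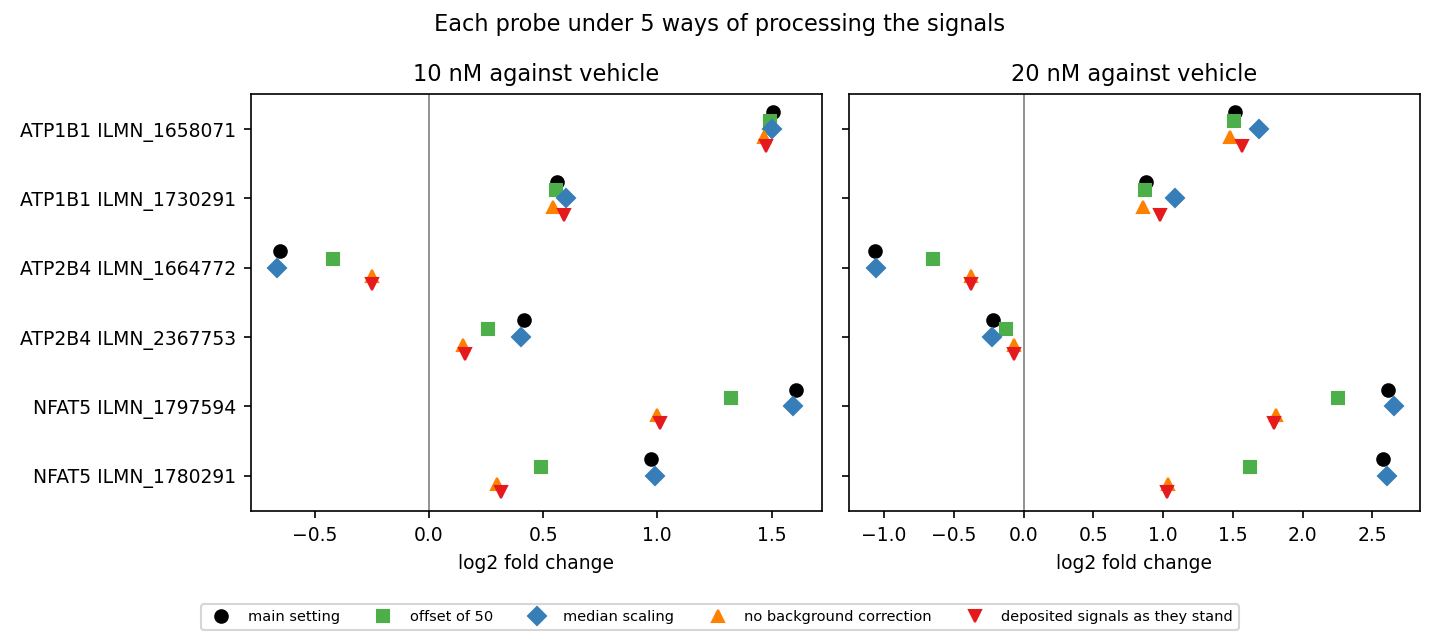
Log2 fold change against vehicle (horizontal axis) of each probe (vertical axis) at 10 nM and 20 nM under 5 ways of processing the signals. No probe changes side, ATP1B1 moves little, and the dim NFAT5 and ATP2B4 probes come nearer to 0 when the background is left in.

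Around the 3 genes, 83 genes of sodium and calcium transport, osmotic stress and calcineurin signalling were set out in 6 lists that hold the 3 genes too. Of these, 41 had a named probe, and the probe of highest mean log2 signal stands for a gene that has several. At 10 nM, 7 of 39 detected genes were higher by at least 2-fold, 1 was lower and 31 lay between, and the median log2 fold change was 0.16. Over all 8233 detected named genes the higher share was 6.41%, the lower share 3.24% and the median -0.04. At 20 nM, 11 of 40 genes were higher, 6 were lower and 23 lay between, and the median was 0.32. Over 8346 named genes the shares were 14.7% higher and 16.6% lower and the median was -0.10. The counts of the single lists below belong beside these shares, and each rests on few genes. At their bounds 4 of the 6 lower genes stayed past 2-fold. ATP2B4 and NFATC1 did not.

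Among sodium pump subunits and FXYD regulators, 4 of 15 had a named probe and 3 were detected. ATP1B1 was the 1 gene past 2-fold. ATP1B3, the beta 3 subunit gene, had a signal of 706 with vehicle, 952 at 10 nM and 1181 at 20 nM, a log2 fold change of 0.46 at 10 nM and 0.80 at 20 nM. FXYD5, which encodes dysadherin, a pump regulator, was at -0.42 and -0.88, with a signal of 199 with vehicle, 175 at 10 nM and 151 at 20 nM. Thus both named beta subunit genes were on the higher side of vehicle at both doses and the detected FXYD gene on the lower side. The alpha subunit genes had no named probe and were not analysed here.

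Of 13 calcium pump and sodium-calcium exchanger genes 5 had a named probe, with 2 lower and 0 higher at 20 nM. SLC8B1, the mitochondrial sodium-calcium exchanger, had a signal of 297 with vehicle, 267 at 10 nM and 169 at 20 nM, and was 1.19-fold lower at 10 nM and 2.67-fold lower at 20 nM. The other lower gene was ATP2B4, whose call is not kept at its bound of 1.85-fold. With an offset of 50, 1 gene of this list was lower, and without background correction or in the deposited signals 0 were. ATP2A2, the reticulum calcium pump SERCA2, was at 0.16 and 0.11 by its representative probe and at 0.84 at 20 nM by another probe. The Golgi calcium pump genes ATP2C1 and ATP2C2 were at -0.42 and 0.33 at 20 nM.

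Calcium entry and release genes had 0 of 7 detected members past 2-fold at 20 nM, with a median of -0.43. STIM2, a sensor of reticulum calcium, was 2.20-fold lower at 10 nM and 1.65-fold lower at 20 nM. The related sensor STIM1 was at 0.85 at 10 nM and 0.05 at 20 nM. ORAI1, the calcium channel that STIM proteins open, was at -0.18 and -0.66.

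Of other ion carriers and volume channels 5 of 12 were detected, of which 2 were higher, 1 was lower and 2 lay between at 20 nM. The LRRC8 proteins form the channel that lets anions and osmolytes out of swollen cells. LRRC8A, its obligatory subunit, was 1.85-fold higher at 10 nM and 2.05-fold at 20 nM. LRRC8E was 2.42-fold higher at 20 nM by its representative probe and 1.47-fold higher by its other probe, while LRRC8D was 2.33-fold lower. The sodium-potassium-chloride importer gene SLC12A2 was at 0.54 at 10 nM and 0.60 at 20 nM. With an offset of 50 or without background correction, 0 of these genes were past 2-fold in either direction.

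The list of NFAT5 and osmotic stress genes had 12 detected members, against 3 to 8 in each of the other lists. At 10 nM 5 of 11 were higher and 0 were lower, and their median was 0.69. At 20 nM 6 of 12 were higher, 1 was lower and 5 lay between, and their median was 1.12. Over all named genes the higher share was 6.41% at 10 nM and 14.7% at 20 nM. Without background correction, 2 genes of the list were higher at 10 nM and 4 at 20 nM. In the deposited signals 3 were higher at each dose. The median of the list at 20 nM was 0.58 and 0.64 under these 2 settings. SLC38A2, an amino acid transporter known as an NFAT5 target, had a signal of 1229 with vehicle, 6444 at 10 nM and 8091 at 20 nM, and was 5.54-fold and 6.56-fold higher. The myo-inositol transporter SLC5A3 was not detected with vehicle and was at least 2.02-fold higher at 10 nM and at least 2.49-fold at 20 nM. The betaine transporter SLC6A12, also not detected with vehicle, was at least 2.11-fold and at least 2.01-fold higher.

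SGK1, a kinase that raises sodium transport, was 4.53-fold higher at 10 nM and 3.73-fold at 20 nM. Its signal was 209 with vehicle, 598 at 10 nM and 498 at 20 nM, and its 2 other probes were also higher at 20 nM, by 1.85 and 1.75 in log2. The chaperone HSPA4L was at 0.60 at 10 nM and 1.58 at 20 nM. STK39, the SPAK kinase that acts on chloride carriers, was the lower member, at -0.69 and -1.73, with a signal of 3223 with vehicle, 2124 at 10 nM and 1092 at 20 nM. WNK1 and OXSR1, kinases of the same cascade, were at 0.30 and 0.35 at 20 nM. HSPA1B, at 0.51, has a near-identical copy, HSPA1A, so the source of its signal is uncertain.

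Of the calcineurin and NFAT family, 8 of 15 had a named probe, with 2 higher and 2 lower at 20 nM. Over all named genes 14.7% were higher and 16.6% lower. At bounds 1 of the lower genes stayed past 2-fold. Without background correction 2 were higher and 0 lower, and in the deposited signals 1 and 0. RCAN1, a calcineurin inhibitor that is itself an NFAT target, had a signal of 240 with vehicle, 479 at 10 nM and 529 at 20 nM, and was 2.67-fold and 3.12-fold higher. Its other probe, not detected with vehicle, was at least 2.97-fold and at least 3.27-fold higher. PPP3CC, a catalytic subunit of calcineurin, was 2.37-fold higher at 20 nM. PPP3CA, another catalytic subunit, was 2.12-fold lower at 20 nM by its representative probe and at 0.70 in log2 by its other probe. NFATC3 was not detected at 10 nM, where it was at least 1.13-fold lower, and was at 0.94 at 20 nM. NFATC1 was at least 1.21-fold lower at 20 nM.

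**Figure D4:**
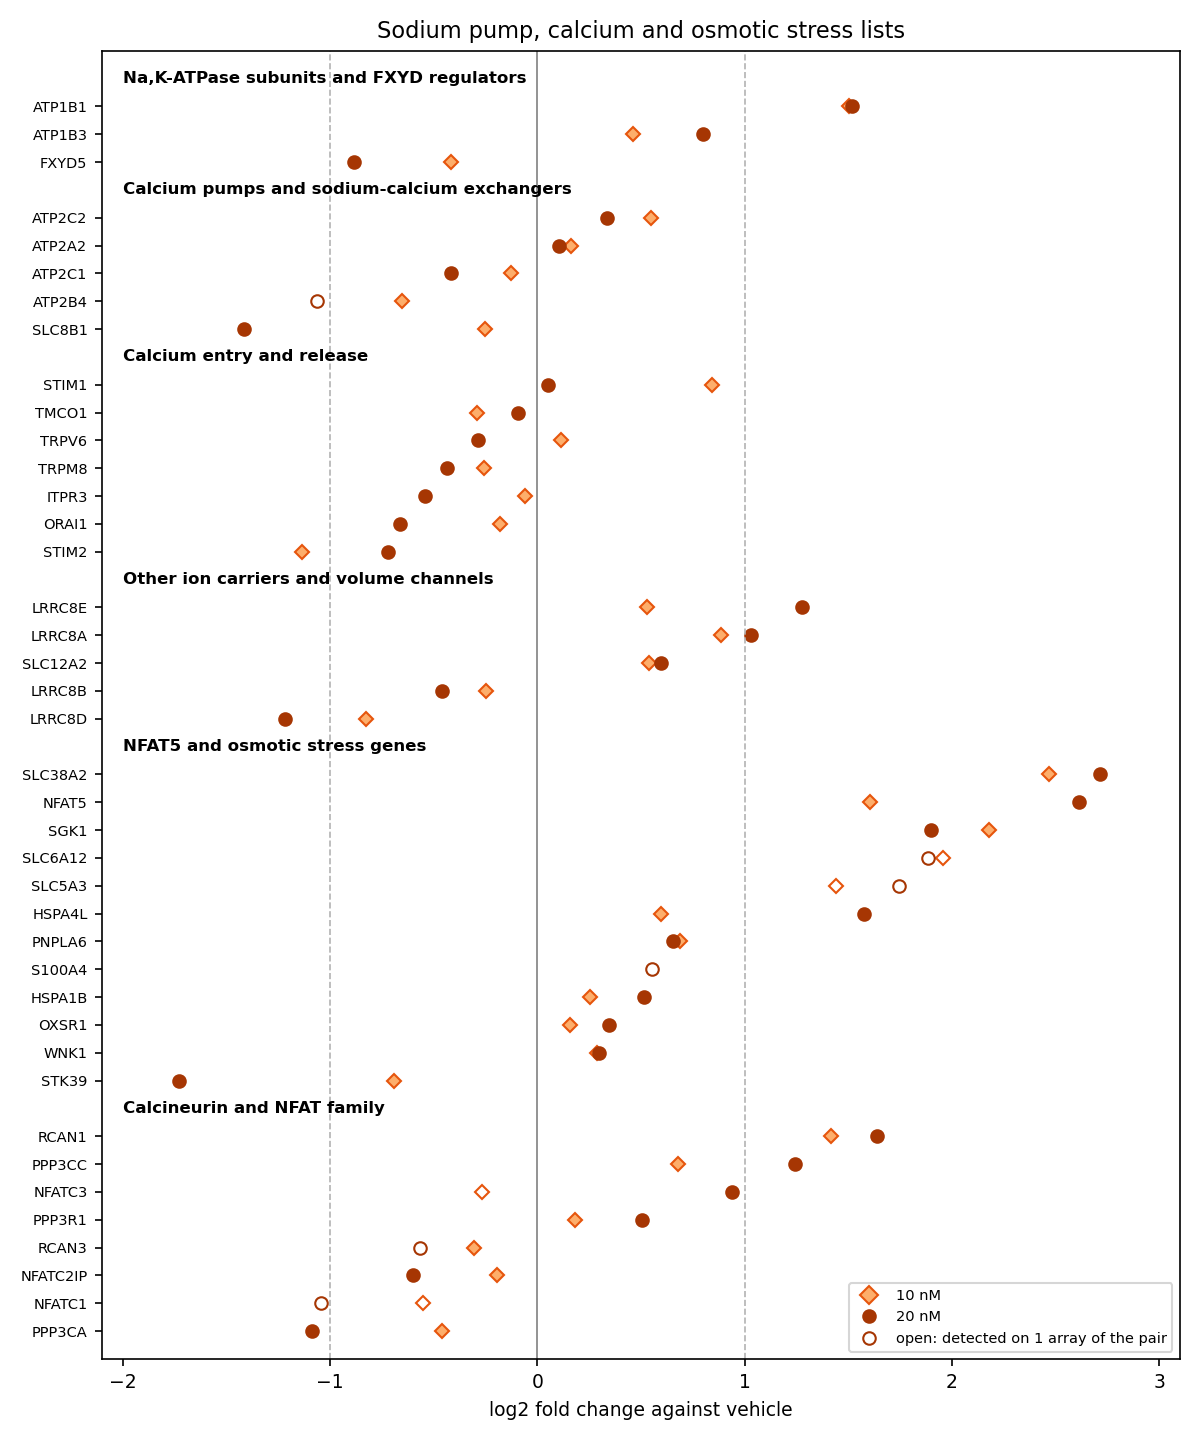
Log2 fold change against vehicle (horizontal axis) at 10 nM (diamonds) and 20 nM (circles) of each detected gene of the 6 lists (vertical axis), by its probe of highest mean, with open symbols where 1 array of the pair detected it and dashed lines at 2-fold. Osmotic stress genes stand mostly on the right, from SLC38A2 at 2.71 to STK39 at -1.73, and calcium entry genes lie between the dashed lines at 20 nM.

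The pattern over the arrays was compared with that of other named genes by the distance between their pairs of log2 fold changes at 10 and 20 nM, which rests on 3 arrays. Both fold changes share the vehicle array. The probe used was ILMN_1797594 for NFAT5 and ILMN_1658071 for ATP1B1. Nearest to NFAT5 of 7170 genes were N4BP2L2 at a distance of 0.02, with 1.58 and 2.60, and CREBBP, a coactivator and acetyltransferase gene, with 1.55 and 2.56. TSC1, an inhibitor of mTOR signalling, PHLDA3 and BHLHE40 followed at distances of 0.10, 0.11 and 0.12. Nearest to ATP1B1 were ANKRD22, with 1.54 and 1.47, NPIPB5, AKAP13, JAG1 and PPTC7, at 0.06 to 0.08. The other ATP1B1 probe, ILMN_1730291, lay elsewhere, at 0.56 and 0.88, so these neighbours are those of 1 probe. NPIPB5 belongs to a family of near-identical copies, so the source of its signal is uncertain. For ATP2B4 no nearest genes are given, since its probe ILMN_1664772 was not detected at 20 nM and has only a bound there.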

How the data were processed

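RNA of 3 LNCaP cultures was hybridised to Illumina arrays, 1 per treatment. Per the file headers, the deposited intensity values are not normalized, and a deposited detection p-value stands beside each. The submitters' processing notes name BeadStudio 3.0. Background subtraction is a step not given in the sources used. The deposited values still held a background, with fitted means of 113, 114 and 116 units on the vehicle, 10 nM and 20 nM arrays. The second deposited table holds 13753 probes, and its 41259 intensity values equal those of the first exactly. From the values, 13752 of them met 1 rule: 2 or more arrays with a detection p-value under 0.05, and a signal differing from vehicle by 10% or more at some dose. Only these probes could be named, from GEO's platform annotation, with symbols updated by gene identifier to RefSeq's table (10947 identifiers of 10952 probes and 8661 genes).

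Background was removed by normexp fitted from detection p-values (limma 3.58.1, R 4.3.3), an offset of 16 was added, arrays were quantile normalized and log2 was taken, which understates the differences of dim probes. Probes detected on 1 array of a pair get a bound: the bright value is set against the dim one, or against the lowest value of a detected probe on the dim array where that is higher. With 1 array per group, the number of arrays limits the precision. The steps were tested on a simulated copy of the vehicle array in which few probes were changed by known folds. Far more probes differed at 20 nM, so that test does not cover quantile normalization there. The members and lists were chosen with earlier results of these data known. Named were all member probes, list genes past 2-fold with examples of the rest, and the 5 genes nearest to each member, left out for ATP2B4 because its probe was not detected at 20 nM. Alternatives were no background correction, an offset of 50, median scaling, the deposited signals as they stand, a detection p-value of 0.05, every probe apart, and a 1.5-fold threshold.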

Additional observations from a re-analysis of the deposited data

How the results depend on the processing

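No paired analysis was possible because each treatment had 1 array. The 18 log2 fold changes of the 6 probes were recomputed in 4 other ways. Of the 72 values 0 changed sign, 59 moved by less than 1.5-fold and 13 moved by more, 12 of them with the background left in. ATP1B1 probe ILMN_1658071 ranged from 1.467 to 1.502 at 10 nM and from 1.48 to 1.69 at 20 nM. Without background correction, and in the deposited signals as they stand, NFAT5 probe ILMN_1797594 was at 0.997 and 1.01 at 10 nM and at 1.81 and 1.79 at 20 nM, and ATP2B4 probe ILMN_1664772 was at -0.375 in each at 20 nM. The reason lies in the construction of these alternatives, which keep a background of about 113 units in both signals of a ratio. NFAT5 probe ILMN_1780291 ranged from 1.03 to 2.60 at 20 nM.

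Over the 6 gene lists, the 7 higher and 1 lower at 10 nM were 3 and 0 without background correction, 4 and 0 in the deposited signals and 12 and 4 at 1.5-fold, and 0 were lower with an offset of 50. The 11 higher and 6 lower at 20 nM were 7 and 1 without background correction and 5 and 1 in the deposited signals. The lower count was 3 with an offset of 50 and 10 at 1.5-fold. The signals of ATP2B4 and of NFAT5 with vehicle lie near the background, which limits their folds, and no replicate array shows the spread between cultures.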

Other observations

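Probes of the same gene in these lists did not always stand on the same side of vehicle. PPP3CA, which encodes a catalytic subunit of calcineurin, had 1 probe at -1.09 and another at 0.70 at 20 nM, both annotated to the same transcript record. Their signals were 464 and 554 at 20 nM, against 881 and 384 with vehicle, all with detection p-values of 0. NFATC2IP, which encodes a protein that binds NFATc2, had probes at -0.20 and 0.41 at 10 nM, detected on both arrays. Its remaining probe was detected with vehicle only and was at least 1.03-fold lower at 10 nM. The 3 probes of SGK1 were at 2.18, 1.98 and 1.98 at 10 nM. Over 1858 named genes with several detected probes, the pooled SD of log2 fold change between probes of a gene was 0.44 at 20 nM, and over 1797 genes it was 0.31 at 10 nM.

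Of the LRRC8 genes, LRRC8A and LRRC8E stood above vehicle at both doses, with 0.89 and 0.53 at 10 nM, and LRRC8B and LRRC8D stood below it, with -0.25 and -0.83. The other LRRC8E probe was at 0.17 at 10 nM. No test of that split was possible with 1 array per treatment.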
